A study of Mus musculus with 16 samples.

Results

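Alox15, Lta4h, Pla2g7, Ptgs1 and Hdc encode enzymes that make or break down small inflammatory mediators. They were chosen by gene name, with their values in these data already known, and are 5 of the 1413 genes that the authors' deposited tables list for either subset. The tables compare eosinophils sorted from the duodenal lamina propria of mice at ZT 15 and ZT 3 (zeitgeber time, counted in hours from lights on), called PM and AM in the sample titles. There were 16 libraries of 1000 cells each. CD11c-low cells gave 4 libraries at ZT 15 and 4 at ZT 3, and CD11c-high cells likewise gave 4 at ZT 15 and 4 at ZT 3. No genotype or agent is stated for any group, and the labels give neither the strain, sex or age of the mice nor whether libraries of a group came from separate animals.

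Eicosanoids are oxygenated fatty acids made from arachidonic acid, which phospholipases free from membranes. Cyclooxygenases turn it into prostaglandins and thromboxane, and lipoxygenases into leukotrienes and hydroxy fatty acids. Platelet-activating factor is a phospholipid mediator released by granulocytes, and histamine is an amine made by decarboxylation of histidine. Eosinophils are known as a source of leukotrienes and lipoxygenase products and as strong expressers of the lipoxygenase Alox15. Pla2g7 encodes the secreted acetylhydrolase that inactivates platelet-activating factor and cleaves oxidised phospholipids, so the word synthesis does not cover this gene.

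All values are the authors' own, since each table holds the result of a comparison and no level of any single library. Each listed gene has a mean normalised count over the libraries, a log2 fold change at ZT 15 over ZT 3 that was shrunken towards 0, its posterior standard deviation (given after ±) and an s-value. An s-value estimates how often the sign is wrong, on average, over that gene and all genes ranked above it, and every listed gene lies under 0.05, the threshold for a call here. A gene that is not listed has no value and was not analysed here. The direction rests on the names of the tables.

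Every listed value of the enzymes was higher at ZT 15. In CD11c-low eosinophils 4 of the 5 were listed, namely Hdc, Pla2g7, Lta4h and Alox15. In CD11c-high eosinophils 2 were listed, Hdc and Ptgs1. Hdc was therefore the gene listed in both subsets, 3 enzymes were listed for CD11c-low cells alone and 1 for CD11c-high cells alone. Over all genes, 99 were listed in both, which is 7.39% of the CD11c-low list and 57.6% of the CD11c-high list. Of all genes in the authors' deposited tables, 52.2% of 1340 were higher at ZT 15 in CD11c-low cells and 54.1% of 172 in CD11c-high cells. The enzymes were picked from these same comparisons, so nothing is read from their counts. In sorted bulk cells a change in the level per cell and a change in the mix of cells cannot be told apart.

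**Figure D1:**
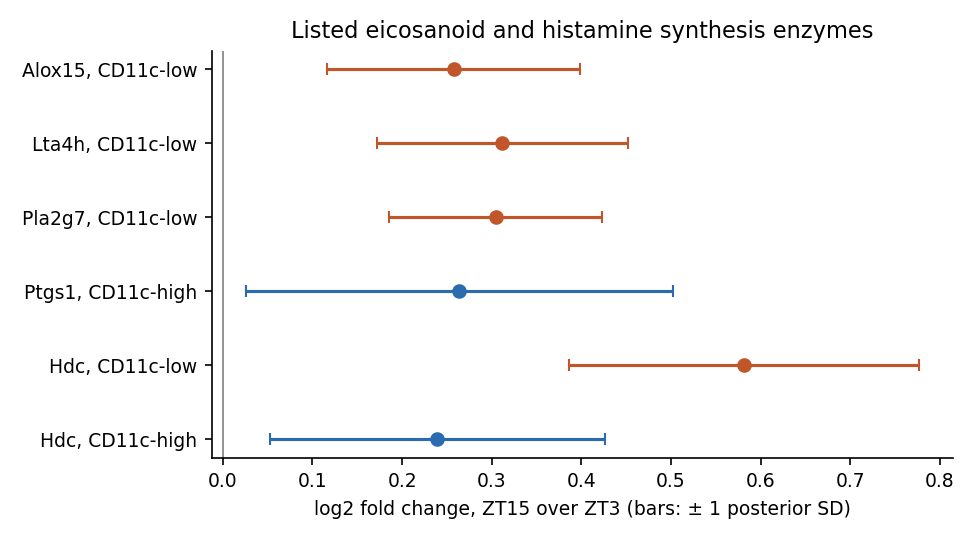
Log2 fold change at ZT 15 over ZT 3 (x axis) for each enzyme and subset in which it is listed (y axis). Points are the authors' shrunken estimates, bars are 1 posterior standard deviation to each side, orange marks CD11c-low and blue CD11c-high cells. Hdc in CD11c-low cells lies farthest to the right at 0.58, and the other 5 values lie between 0.24 and 0.31.

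For the 3 enzymes with the smallest s-values, Hdc, Pla2g7 and Lta4h, the 250 bases before the transcription start are shown. Each was listed as higher at ZT 15 in CD11c-low cells, as Alox15 was too. The sequences are RefSeq's on build GRCm38.p6, which is older than the GRCm39 named in the submitters' processing notes, and 4 of the 5 enzymes have an entry in that table. The window lies at chr2:126618679-126618928 on the minus strand for Hdc, at chr17:43568201-43568450 on the plus strand for Pla2g7 and at chr10:93453146-93453395 on the plus strand for Lta4h. Each reads 5′ to 3′ towards the gene. Capitals mark the motifs found, which are a GC box in Hdc and Pla2g7 and CCAAT boxes in Lta4h.
Hdc: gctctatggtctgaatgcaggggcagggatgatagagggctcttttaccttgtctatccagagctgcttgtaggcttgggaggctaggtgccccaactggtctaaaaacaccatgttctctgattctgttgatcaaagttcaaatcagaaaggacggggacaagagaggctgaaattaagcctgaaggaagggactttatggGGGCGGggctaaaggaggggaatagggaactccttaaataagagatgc
Pla2g7: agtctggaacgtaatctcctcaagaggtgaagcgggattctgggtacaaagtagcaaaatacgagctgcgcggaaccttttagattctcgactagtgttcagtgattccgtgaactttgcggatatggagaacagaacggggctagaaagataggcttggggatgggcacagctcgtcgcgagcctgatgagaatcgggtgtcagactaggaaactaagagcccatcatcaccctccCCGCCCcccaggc
Lta4h: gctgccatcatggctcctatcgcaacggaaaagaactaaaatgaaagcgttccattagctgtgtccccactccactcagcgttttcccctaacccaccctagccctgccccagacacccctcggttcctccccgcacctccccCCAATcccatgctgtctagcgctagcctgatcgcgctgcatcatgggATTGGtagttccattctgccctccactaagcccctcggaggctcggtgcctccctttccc
Searched on both strands were the E-box CACGTG, the cAMP response element core TGACG, the GATA motif AGATAA, the ROR element core AGGTCA, the D-box TTATGTAA, the GC box GGGCGG, the CCAAT box CCAAT and the TATA box TATAAA. The GC box begins 48 bases before the start of Hdc, on the gene's strand, and 13 bases before that of Pla2g7, on the opposite strand. In Lta4h the CCAAT boxes begin 107 bases before the start on the gene's strand and 60 bases before it on the opposite strand. Among 32851 RefSeq promoters cut to the same 250 bases, 32.7% hold a GC box and 33.8% a CCAAT box. The letters of the E-box, cAMP core, GATA, ROR and D-box motifs stand in 6.02%, 17.8%, 9.99%, 14.0% and 0.819% of these promoters, and those of the TATA box in 12.4%. None of these 6 occurs in the 250 bases of Hdc, Pla2g7 or Lta4h, nor does any of the 8 motifs in that of Ptgs1, which says only that these letters are not in these windows.

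Among the lipoxygenase and leukotriene enzymes, Lta4h and Alox15 were listed at nearly equal mean counts. Lta4h (ENSMUSG00000015889.9) encodes leukotriene A4 hydrolase, which forms the neutrophil attractant leukotriene B4 and also acts as an aminopeptidase. It had a mean normalised count of 4877 and rose by 0.31 ± 0.14 in log2 at ZT 15 in the authors' deposited table of CD11c-low cells (s-value 0.00314), a fold of 1.24. Alox15 (ENSMUSG00000018924.7) encodes a lipoxygenase that oxygenates arachidonic and linoleic acid, free or bound in membranes. Its mean normalised count was 4887, and it rose by 0.26 ± 0.14 in the authors' deposited table (s-value 0.0108), a fold of 1.20. The range of 2 standard deviations to each side ran from 0.03 to 0.59 for Lta4h and from -0.02 to 0.54 for Alox15, on the log2 fold change scale. The range for Alox15 thus reaches just below 0, although its s-value is under the threshold.

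Pla2g7 (ENSMUSG00000023913.18) was the most abundant of the enzymes. Its mean normalised count of 22371 ranked 5 of the 1340 genes in the authors' deposited table of CD11c-low cells. It rose by 0.30 ± 0.12 in log2 at ZT 15 there (s-value 0.00114), a fold of 1.24, with a range of 2 standard deviations from 0.07 to 0.54. The estimate lay between those of Lta4h and Alox15, with the smallest standard deviation of the 4 enzymes listed for CD11c-low cells.

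Hdc (ENSMUSG00000027360.6) encodes histidine decarboxylase, the enzyme that makes histamine, and had the largest estimated increase of the enzymes. In the authors' deposited table of CD11c-low cells it rose by 0.58 ± 0.20 in log2 at ZT 15 (s-value 0.000218, mean normalised count 934), a fold of 1.50. In that for CD11c-high cells it rose by 0.24 ± 0.19 (s-value 0.0359, mean normalised count 817), a fold of 1.18. The range of 2 standard deviations ran from 0.19 to 0.97 in CD11c-low cells and from -0.13 to 0.61 in CD11c-high cells. The estimate was larger in CD11c-low than in CD11c-high cells by 0.34 ± 0.27, a difference whose range of 2 standard deviations, from -0.20 to 0.88, spans 0. That difference was not tested, because the same values chose the gene, and both estimates are shrunken by an amount that is not known. Its ± value takes the 2 estimates as independent. The sample titles number the libraries of both subsets alike, so independence is not known and the true spread may differ.

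Ptgs1 (ENSMUSG00000047250.14) encodes the constitutive cyclooxygenase, which starts prostaglandin and thromboxane synthesis. It was listed for CD11c-high cells alone, where it rose by 0.26 ± 0.24 in log2 at ZT 15 (s-value 0.0475, mean normalised count 159), per the authors' deposited table, a fold of 1.20. This is the largest s-value of the 6, with a range of 2 standard deviations from -0.21 to 0.74. It lies close to the end of its table, whose largest s-value is 0.0499. Since the tables end there, genes just beyond the limit have no value to set beside it.

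The certainty of the sign varied over the 6 values. The false sign rate of a gene itself, recovered from successive s-values, was 0.0853% for Hdc, 0.445% for Pla2g7, 1.10% for Lta4h and 3.15% for Alox15 in CD11c-low cells. In CD11c-high cells it was 6.72% for Hdc and 8.62% for Ptgs1. All 4 values of CD11c-low cells lie under a rate of 0.05, as do 371 of the 700 higher genes (27.7% of all 1340 listed). Both values of CD11c-high cells lie above 0.05, while 45 of the 93 higher genes lie under it (26.2% of all 172 listed). Hdc, Pla2g7 and Lta4h in CD11c-low cells also had s-values under 0.01 and under 0.005. Of the 700 higher genes, 273 and 199 met these limits (20.4% and 14.9% of all listed). Neither value of CD11c-high cells met them, while 24 and 18 of the 93 higher genes did (14.0% and 10.5% of all listed). Summed over the enzymes, 0.0478 wrong signs are expected among the 4 values of CD11c-low cells and 0.153 among the 2 of CD11c-high cells. Over all listed genes the sums are 67.0 among 1340 in CD11c-low cells and 8.58 among 172 in CD11c-high cells. The enzymes were chosen with their values known, so nothing about their direction is read from these sums.

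**Figure D2:**
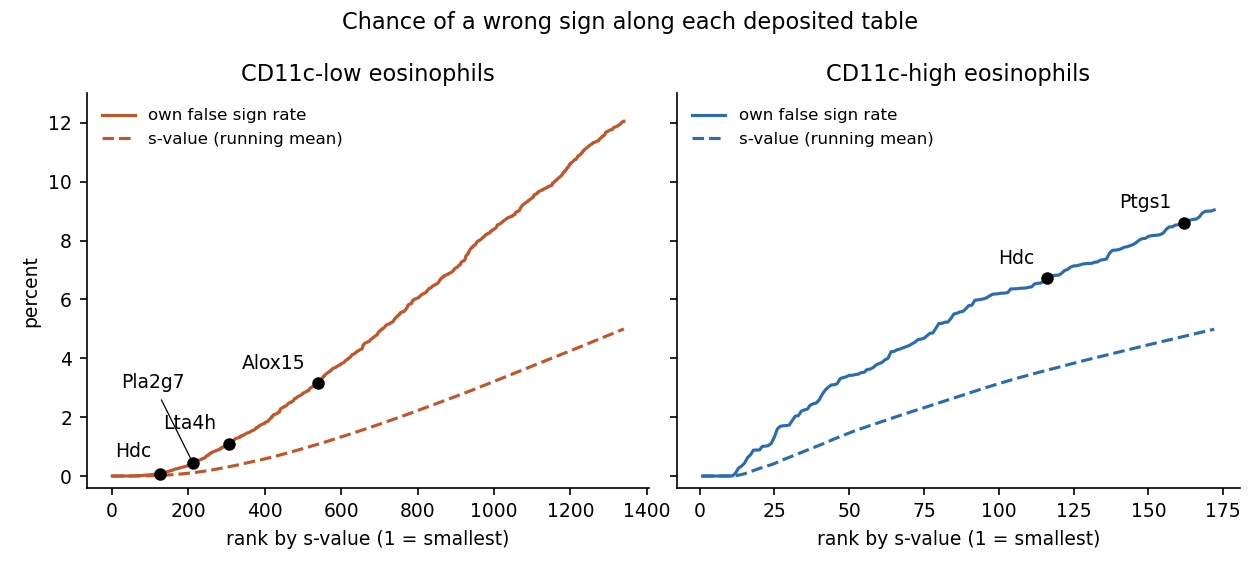
Own false sign rate of each gene (solid line) and the deposited s-value (dashed line), both in percent (y axis), against the rank by s-value (x axis), for CD11c-low cells on the left and CD11c-high cells on the right. Black points mark the enzymes. Hdc, Pla2g7, Lta4h and Alox15 lie at ranks 126, 212, 306 and 540 of 1340, and Hdc and Ptgs1 at ranks 116 and 162 of 172.

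Set among all listed genes, the 4 enzymes of CD11c-low cells had mean counts above the median. The authors' deposited table of CD11c-low cells has a median mean normalised count of 332, and Pla2g7, Alox15, Lta4h and Hdc ranked 5, 36, 37 and 268 of 1340 by that count. By size of increase, Hdc ranked 86, Lta4h 454, Pla2g7 468 and Alox15 571 of the 700 genes that were higher at ZT 15. The median log2 fold change of those 700 genes was 0.36 in the authors' deposited table, above the values of Lta4h, Pla2g7 and Alox15 and below that of Hdc. Their posterior standard deviations were small, with a median of 0.14 over the 4 enzymes against 0.22 over all listed genes. In CD11c-high cells Hdc ranked 47 and Ptgs1 139 of 172 by mean normalised count, with 418 as the median there, so Hdc lay above it and Ptgs1 below. By size Ptgs1 ranked 52 and Hdc 63 among 93 higher genes, whose median log2 fold change was 0.28 in the authors' deposited table.

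Per kilobase of the longest protein-coding transcript in GENCODE M21, the mean normalised count in CD11c-low cells was 10668 for Pla2g7, 2404 for Lta4h, 2029 for Alox15 and 391 for Hdc. In CD11c-high cells it was 342 for Hdc and 55.6 for Ptgs1. The order in CD11c-low cells was thus Pla2g7, then Lta4h and Alox15 close together, then Hdc. By mean count alone, Alox15 stood just above Lta4h. How reads were counted is not given, and the longest transcript may not be the one expressed, so levels per kilobase are rough. No spread over libraries can be given for these levels, and the tables were normalised separately, so levels are not compared between subsets.

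**Figure D3:**
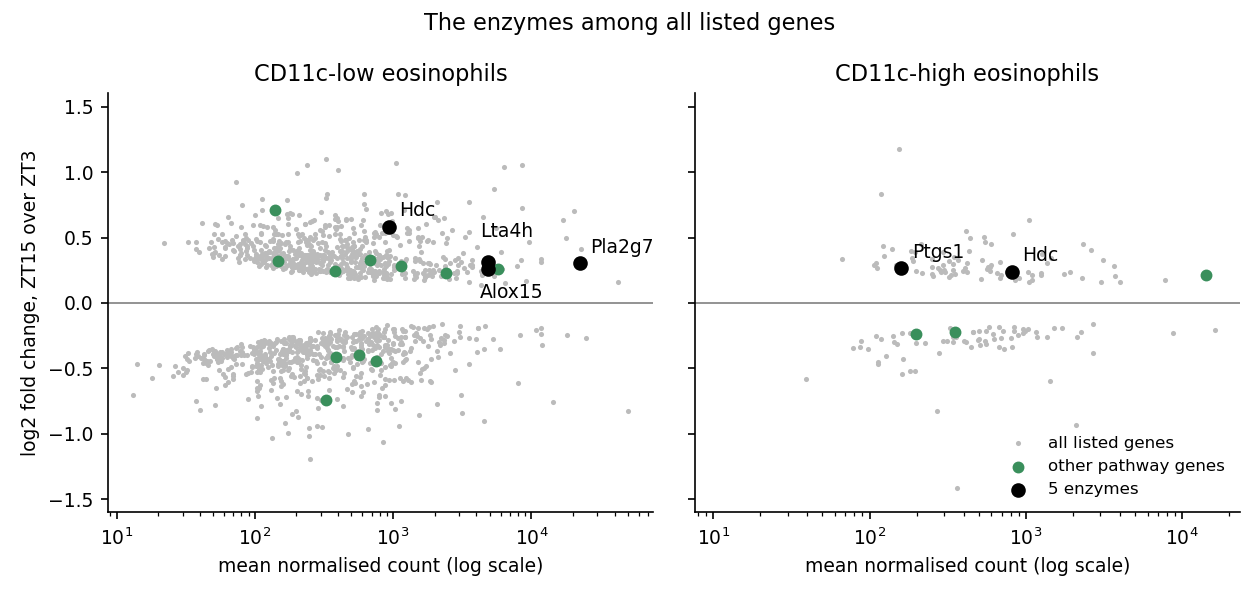
Log2 fold change at ZT 15 over ZT 3 (y axis) against mean normalised count (x axis, log scale) for every listed gene of CD11c-low cells on the left and CD11c-high cells on the right. Black points are the enzymes, green points the other pathway genes and grey points all listed genes, of which 19 and 11 lie beyond the y axis limits of 1.6. Pla2g7 lies at the far right of the CD11c-low panel, and the band without points around 0 is there because the tables hold called genes only.

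In CD11c-low cells the other genes of these pathways were split between higher and lower. Of 120 further genes on 9 lists of the pathways, 11 were listed there, 7 higher and 4 lower at ZT 15, and the share of higher genes among all listed was 52.2%, as given above. The median log2 fold change of the 11 was 0.24, beside 0.21 over all listed genes. By list, 2 of 9 further lipoxygenase genes, 2 of 11 of leukotriene synthesis and export and 2 of 24 of arachidonic acid release were higher. Lower were 2 of 12 of prostaglandin and thromboxane synthesis and 1 of 5 of platelet-activating factor turnover, and of 19 receptors 1 was higher and 1 lower. No direction of a list was tested. How many genes the authors tested is not known. No share of listed genes over all tested genes can therefore be set beside these counts, or beside those of lists below. Alox5, the lipoxygenase that begins leukotriene synthesis, rose by 0.28 ± 0.18 and its membrane partner Alox5ap, which presents arachidonic acid to it, by 0.23 ± 0.13, both per the authors' deposited table. Downstream of Lta4h, Ltb4r1, the high-affinity receptor for leukotriene B4, rose by 0.33 ± 0.20, and Cyp4f18, which oxidises and so inactivates leukotriene B4, by 0.26 ± 0.12 in the authors' deposited table. Own false sign rates were 5.07% for Alox5, 3.45% for Alox5ap, 4.14% for Ltb4r1 and 1.82% for Cyp4f18. In the cysteinyl branch Dpep2, a dipeptidase that trims leukotriene D4, had a log2 fold change of 0.71 ± 0.29 in the authors' deposited table, a fold of 1.63, and a mean normalised count of 140. Ltc4s, which commits leukotriene A4 to that branch, was not listed.

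Both listed genes of prostaglandin synthesis were lower at ZT 15 in CD11c-low cells. Ptgs2, the inducible cyclooxygenase, fell by 0.74 ± 0.23 in log2 in the authors' deposited table (s-value 0.000131), a fold of 0.599, while its paralogue Ptgs1 was not listed for these cells. In the authors' deposited table Ptges3, a prostaglandin E synthase that is also the HSP90 cochaperone p23, fell by 0.45 ± 0.21. Among genes that release arachidonic acid, the monoacylglycerol lipase gene Mgll rose by 0.24 ± 0.19 and the phospholipase gene Plaat3 by 0.32 ± 0.26 in the authors' deposited table. Their signs are less certain, with own false sign rates of 9.38% and 9.87%. Beside Pla2g7, Pafah1b1, which encodes a subunit of the intracellular acetylhydrolase for platelet-activating factor and also regulates dynein, fell by 0.40 ± 0.20 in the authors' deposited table. Gpr132, a receptor for oxidised fatty acids, fell by 0.41 ± 0.21 there, per the authors' deposited table. Own false sign rates were 2.04% for Pafah1b1 and 1.89% for Gpr132, and the range of 2 standard deviations of each just reaches above 0. No gene of histamine storage, breakdown or reception was listed, 0 of 11 in either subset. How many of these 11 were expressed or tested in these cells is not known.

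**Figure D4:**
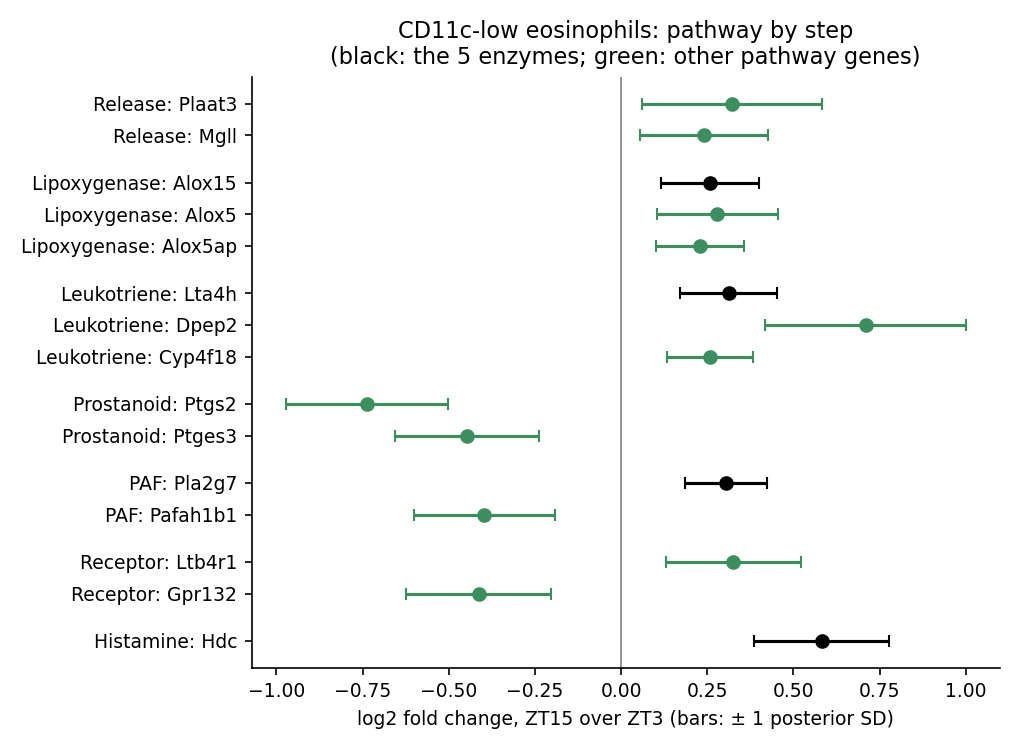
Log2 fold change at ZT 15 over ZT 3 in CD11c-low cells (x axis) for the listed enzymes (black) and other listed pathway genes (green), ordered by step (y axis); bars are 1 posterior standard deviation to each side. All 6 genes in the lipoxygenase and leukotriene rows lie right of 0, as do 52.2% of all listed genes. Alox15 and Lta4h among them were chosen with their values known, and no direction was tested. The range of 2 standard deviations reaches below 0 for Alox15, Alox5 and Alox5ap. The receptors Ltb4r1 and Gpr132 lie on opposite sides of 0, and Ptgs2, Ptges3 and Pafah1b1 lie left of it. For both receptors, Pafah1b1, Mgll and Plaat3 the range of 2 standard deviations also spans 0.

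In CD11c-high cells 3 further pathway genes were listed, 1 higher and 2 lower, where 54.1% of all listed genes were higher. Ptafr, the receptor for platelet-activating factor, rose by 0.21 ± 0.14 in the authors' deposited table, where its mean normalised count of 14171 ranked 2 of 172. Elovl5, a fatty acid elongase, fell by 0.22 ± 0.18, and Gpx4, the peroxidase that reduces lipid hydroperoxides in membranes, by 0.24 ± 0.20 in the authors' deposited table. Own false sign rates were 4.64% for Ptafr, 7.94% for Elovl5 and 7.87% for Gpx4. None of these 3 genes was listed in CD11c-low cells, while 57.6% of the whole CD11c-high list was. None of the 11 of CD11c-low cells was listed in CD11c-high cells, beside 7.39% of the whole CD11c-low list. Whether the subsets differ in any of these genes was not tested.

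Hdc and Ptgs1 are also known from mast cells, and Hdc from basophils. Of 17 mast cell markers, the 1 listed was Srgn, the granule proteoglycan serglycin that many blood cells make, which had a mean normalised count of 42280 and rose by 0.16 ± 0.11 in CD11c-low cells, per the authors' deposited table. None of 10 basophil markers was listed in either table, nor was Kit or Cpa3. No level is available for unlisted markers, so the part of such cells in the Hdc values was not tested. Of 18 eosinophil markers, 5 were listed in CD11c-low cells. Siglecf (0.23 ± 0.13), Csf2rb (0.33 ± 0.16) and Pirb (0.26 ± 0.15) were higher at ZT 15, and Adgre1 (-0.29 ± 0.14) and Adgre4 (-0.21 ± 0.16) lower, in the authors' deposited table. None of the 18 was listed for CD11c-high cells, and the granule protein genes Epx and Prg2 were listed for neither subset, so the cell type label could not be checked on them. Of 15 macrophage and dendritic cell markers 3 were listed in CD11c-low cells, among them Adgre1, as were 2 of 14 of B and plasma cells, 2 of 13 of epithelium and tuft cells and 1 of 13 of T, NK and innate lymphoid cells. None of 10 neutrophil and 8 platelet and red cell markers was listed in either table. Of these markers, Cd68 (0.52 ± 0.30), Cd74 (-0.49 ± 0.33), Bank1 (0.32 ± 0.15), Ighm (0.24 ± 0.20) and Krt18 (-0.35 ± 0.24) were listed in the authors' deposited table of CD11c-low cells. The second marker of epithelium and tuft cells is Alox5, higher as given above. Gzma, a granzyme of T and NK cells, had a fitted log2 change of 20.99 ± 3.33 in the authors' deposited table at a mean count of only 30.4, and no fold is read from it. In the same libraries 14 immunoglobulin segments were called in CD11c-low cells, 8 higher and 6 lower at ZT 15. In CD11c-high cells 9 were called, 7 higher and 2 lower. The fitted changes of these segments, up or down, were at least 9.29 in log2 in the authors' deposited tables. Their part in the values of the enzymes was not tested.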

How the data were processed

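Polyadenylated RNA of sorted duodenal eosinophils was amplified and sequenced as Nextera XT libraries, as the labels' protocols state. The submitters' processing notes name STAR 2.7.10b, DESeq2 1.38.3 and GRCm39 with no role, and the sources used here do not give how reads were counted or fold changes shrunken. The authors deposited a signal per gene (header baseMean), read here as its mean count after division by library size factors. Each gene's log2 fold change and lfcSE, read here as shrunken and as a posterior standard deviation, were also deposited by the authors. The s-values that the authors deposited take the place of a p-value and are all under 0.05. Depth per library is unknown.

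Python 3.11.15 with pandas 2.3.3, matplotlib 3.10.9 and NumPy 2.4.6 was used. Computed were ranks, folds, counts by direction, ranges of 2 standard deviations, levels per kilobase, promoter motifs and each gene's own false sign rate. On simulated running means, the calculation of that rate returned the known rates. This checks the arithmetic alone, not whether the authors' s-values are such running means or are well calibrated. No test was run on the enzymes. The enzymes and gene lists were chosen with earlier results of these data known. Named were the 5 enzymes, every listed pathway gene, every listed mast cell or basophil marker and up to 4 of each other cell type. All 5 listed eosinophil markers were named, so Adgre4 went beyond that limit. Kit, Cpa3, Epx, Prg2 and Ltc4s were named as unlisted after the tables were seen. The GC, CCAAT and TATA boxes were added to the motifs after the other 5 gave no match in the enzymes' promoters. Alternatives were stricter calls, a floor on the mean count, matching by identifier and a shorter pathway list.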

Additional observations from a re-analysis of the deposited data

How the results depend on the processing

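Of 48 alternatives, 35 left a count within 1.5 times its value, or a share within its binomial interval, and 13 did not. Some of the 35 could not have moved, so their number does not measure stability. The count of 0 lower enzymes cannot change under a stricter call. The floor of 50 lies below the mean count of every enzyme, the smallest being 159 for Ptgs1. No listed value changed sign, since the estimates themselves were not refitted. In CD11c-low cells the 4 higher enzymes became 3 at an s-value under 0.01 or 0.005, without Alox15, and stayed 4 at an own false sign rate under 0.05. In CD11c-high cells the 2 higher enzymes became 0 under each of these 3 stricter calls. The tables hold no unadjusted p to set beside that 0. The 7 higher pathway genes of CD11c-low cells became 2 under 0.01, 1 under 0.005 and 4 by own false sign rate, and the 4 lower ones became 2 under 0.005. In CD11c-high cells the 1 higher pathway gene became 0 under 0.01 and 0.005, and the 2 lower ones became 0 under each stricter call and 1 without the list of fatty acid activation and reacylation. No paired analysis was possible because the tables hold no column of a single library, and no replicate could be left out for the same reason. Depth limits the calls in an unknown way, as no library total is given.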
